A study of Homo sapiens with 4 samples.

Results

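A stretch of the FAM13A locus on chromosome 4 was described across 948 oligonucleotides of 79 variants, out of 7270 oligonucleotides of 606 variants in all. The members were the variants whose listed position lay between 89910000 and 89979999, without rs2869974 and rs1398940. Position set the members, but those 2 variants hold elements higher than any member, so leaving them out lowered the top of the range. The selection took these positions as build hg19, in the introns at the 5′ end of FAM13A up to the start of its long isoform. The count table itself named no build, and the exon and intron positions of the variants were not analysed here. The first member, rs6834787, was listed at 89912464 and the last, rs11097211, at 89978456. The nearest variants outside were rs6815703 at 89909917 and rs7689961 at 89980101.

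Variants in FAM13A have been tied to chronic obstructive pulmonary disease and lung function in genome-wide association studies. A massively parallel reporter assay clones many short DNA sequences beside a promoter and marks each plasmid with a barcode, here called a tag, that is carried in the reporter transcript. More RNA reads of a tag relative to its plasmid reads mean more transcript per plasmid. Such plasmids are read outside the chromosome, so the assay measures the cloned sequence and not the locus in its place.

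The study put the oligonucleotides into BEAS-2B cells, an established bronchial epithelial line of human origin, on plasmids with either of 2 promoters. The minimal promoter (minP) was called relatively weak in the labels and the simian virus 40 promoter (SV40) strong. There were 4 groups of 1 library each, which were minP RNA, minP input, SV40 RNA and SV40 input. RNA came from cells 24 hours after nucleofection, input was the plasmid pool amplified by PCR, and no replicate transfection entered any value below. The stretch held 1429989 RNA reads against 3885252 input reads with minP, and 3157832 RNA reads against 3441418 input reads with SV40.

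For each variant the table listed 2 alleles, 3 windows (letters L, C and R) and 2 orientations (F and RC), and it did not explain the window letters. The word construct is used below for a variant in a given window and orientation, and element for 1 of its alleles. The 474 constructs were read through 28690 of the 218526 tags, with 7 to 33 tags per oligonucleotide and a median of 31. The variants were 61 transitions and 18 transversions, and neighbours lay between 1 and 7006 bases apart, with a median of 491. Elements of 1 variant are listed at the same position, and those of the 12 neighbouring pairs under 100 bases apart lie close together. They are therefore not replicates of each other, and how much sequence they share was not analysed here.

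The oligonucleotide letters were not used here, but each tag is a designed 11-base sequence that stands for its oligonucleotide in the counts. Tags of the construct with the largest allelic difference relative to its error in this stretch, rs2869972 in window C and orientation F (listed at 89919413), are shown to make that difference visible. They are the tags at the lower quartile, the median and the upper quartile of the RNA to input ratio with minP within each allele. All tags shown were picked with minP alone, so their SV40 counts need not be typical of their element. Capitals mark the first 2 bases, which matter because tags that begin with TC gave little RNA in this assay.
rs2869972 allele G, lower quartile: TTggactgtca
rs2869972 allele G, median: GGcaaggataa
rs2869972 allele G, upper quartile: CGggagctaac
rs2869972 allele A, lower quartile: CTtcgatgttc
rs2869972 allele A, median: ATcgtccatag
rs2869972 allele A, upper quartile: GGaggtactca

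The median tag of rs2869972 allele G, GGcaaggataa, had 23 RNA reads against 114 input reads with minP, and 21 RNA reads against 171 input reads with SV40. The median tag of rs2869972 allele A, ATcgtccatag, had 34 RNA reads against 530 input reads with minP, and 35 RNA reads against 366 input reads with SV40. With the counts brought to the library's depth and average, the 3 tags shown for allele G of rs2869972 stood at -0.35, -0.07 and 0.72 on the log2 scale with minP. The 3 tags shown for allele A of rs2869972 stood at -2.52, -1.74 and -0.87, all below the 3 of allele G.

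Tags of the strongest element of the stretch and of its reverse complement, from rs10516826 in window L (listed at 89918968), are shown because the same window was far above the average in one orientation and far below it in the other. Each is the median tag of its element with minP.
rs10516826 allele C, orientation F: AGgtgttgcga
rs10516826 allele C, orientation RC: AAgatcgtttc
rs10516826 allele T, orientation F: GCgtggagatc
rs10516826 allele T, orientation RC: CGatataggac

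The median tag of rs10516826 allele C in orientation F, AGgtgttgcga, had 136 RNA reads against 35 input reads with minP and 401 RNA reads against 58 input reads with SV40. Its counterpart in orientation RC, AAgatcgtttc, had 19 RNA reads against 376 input reads with minP and 24 RNA reads against 356 input reads with SV40. For allele T of rs10516826, the tag GCgtggagatc of orientation F had 109 RNA reads against 34 input reads with minP. The tag CGatataggac of orientation RC had 4 RNA reads against 49 input reads with minP. The F tags thus had more RNA reads than input reads and the RC tags fewer, in libraries with fewer RNA reads in all.

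The first comparison asked which elements drove more or less reporter than the average tag. Element activity was the mean log2 ratio of RNA to input over the tags of an element that had at least 10 input reads, minus the mean over all such tags of the library, with the standard error over tags. At least 10 tags were required, which left 915 of the 948 elements measured with minP and 909 with SV40, and the other 33 and 39 had too few tags to be measured. With 1 library per group, elements at least 2-fold from the average tag were counted without a test. The median standard error of an element in the stretch was 0.32 with minP and 0.36 with SV40. Reads amplified by PCR without molecular identifiers are not independent molecules, and these errors cover the spread among tags of 1 transfection only.

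The stretch as a whole had the activity of the locus as a whole. With minP, 83 of 915 elements (9.07%) were at least 2-fold above the average tag, against 9.28% over the whole table, and 144 (15.7%) were at least 2-fold below it, against 15.4%. With SV40, 119 of 909 elements (13.1%) were above, against 12.9% over the whole table, and 164 (18.0%) were below, against 18.8%. The counts above depend on the measure. With the median tag as the reference they were 49 with minP and 63 with SV40, and without tags at 0 RNA reads 55 with minP. With SV40 they were 59 from summed counts and 78 at a minimum of 50 input reads. These alternatives were counted in the stretch only, so they have no whole-table share to set beside them. In the main setting the shares were close to the background, so no enrichment or depletion of active elements was seen in the stretch. The median activity was 0.11 in the stretch and 0.10 in the whole table with minP, and 0.10 in both with SV40. Both pools carry the same tags, so SV40 was not an independent repeat of minP, and 70 of 906 elements (7.73%) were above in both libraries, against 7.85% over the whole table. Another 117 elements (12.9%) were below in both, against 12.6% over the whole table, and 0 of 906 went opposite ways in the 2 libraries.

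Along the stretch, the share of elements above the average varied between stretches of 10000 bases, some of which held few variants. Whether it varied more than elsewhere in the table was not tested. Between 89910000 and 89919999, 28 of 238 elements (11.8%) of 21 variants were at least 2-fold above with minP and 38 of 237 (16.0%) with SV40. Between 89960000 and 89969999, 1 of 48 elements (2.08%) of 4 variants was above with minP and 2 of 48 (4.17%) with SV40. These were the highest and the lowest shares, against 9.28% with minP and 12.9% with SV40 over the whole table. The other shares lay between 5.88% and 10.1% with minP and between 8.33% and 15.2% with SV40. Median activity per 10000 bases lay between 0.02 and 0.30 with minP and between -0.14 and 0.32 with SV40.

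The 6 highest elements were the same in both libraries and came from 4 variants. The highest was allele C of rs10516826 in window L and orientation F, at 3.99 ± 0.22 with minP (18 tags, 15.9-fold above the average tag) and 3.69 ± 0.31 with SV40 (16 tags, 12.9-fold). It had 105 RNA reads against 28.0 input reads per tag with minP, and 202 RNA reads against 33.6 input reads per tag with SV40. Its other allele, T, had other tags and stood at 3.67 ± 0.33 with minP and 3.54 ± 0.60 with SV40. Both alleles of this window were therefore far above the average, on separate sets of tags. The other elements of rs10516826 were not: the measured ones lay between -2.11 and 0.39 with minP. Its window C in orientation F had fewer than 10 passing tags in each allele and was not measured.

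Also among these 6 elements were the 2 alleles of rs1398942 (listed at 89930392) in window L and orientation F. Allele G stood at 3.39 ± 0.23 with minP and 3.19 ± 0.34 with SV40, and allele A at 2.76 ± 0.29 with minP and 3.15 ± 0.37 with SV40. Activity of the F elements was graded over the windows of rs1398942, with 1.09 and 1.10 in window C and 0.49 in both alleles of window R with minP. In orientation RC, window L of rs1398942 was below the average instead, at -1.60 for allele G and -1.37 for allele A with minP.

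Allele T of rs9996559 (listed at 89976734) in window L and orientation F stood at 3.14 ± 0.26 with minP and 3.54 ± 0.27 with SV40. Its allele C in the same construct stood at 2.23 ± 0.48 with minP and 3.05 ± 0.33 with SV40. Allele A of rs2869972 in window L and orientation RC stood at 2.88 ± 0.42 with minP and 3.21 ± 0.41 with SV40, and its allele G at 1.90 ± 0.28 and 2.90 ± 0.34. All 4 of these top constructs were thus in window L, and in each of them both alleles were above the average by more than 3 standard errors. The top 6 elements had 23.1 to 46.8 input reads per tag with minP, below the median of 104 input reads over the tags of the stretch. Their low input was not tested as a source of their activity. Over all 915 elements, activity and the log2 of the input reads per tag had a Pearson r of 0.03 with minP, and 0.24 over 909 elements with SV40, with shared library and depth. Over the whole table it was 0.12 with minP and 0.30 with SV40. Input is the denominator of activity, so these values cannot tell whether low input raised the top elements.

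The top elements of the 2 variants left out, which lie inside the coordinates of the stretch, were higher than these. Allele C of rs2869974 in window C and orientation F stood at 4.26 ± 0.23 with minP and 4.52 ± 0.22 with SV40. Allele A of rs1398940 in window L and orientation F stood at 4.24 ± 0.28 with minP and 3.90 ± 0.59 with SV40. Over all 12 elements, whose levels went both ways, the means of the pair were 0.56 ± 2.54 for rs2869974 and 0.64 ± 2.01 for rs1398940 with minP, and 1.04 ± 2.66 and 0.71 ± 1.93 with SV40 (SD over elements). The 4 members within 2000 bases of them had narrower spreads around their own means over 12 elements. These means were 0.30 ± 0.93 for rs12509305, 0.47 ± 0.34 for rs60213126, -0.02 ± 0.68 for rs1795729 and -0.01 ± 0.87 for rs12508524 with minP (SD over elements). With SV40 the means were 0.49 ± 1.19, 0.40 ± 0.37, -0.23 ± 0.86 and 0.00 ± 0.92 in the same order. All 4 members lay within 1 SD of the means of the pair, but so did all 79 variants of the stretch. Their means ran from -1.22 to 0.73 with minP and from -1.16 to 0.87 with SV40. With SDs this wide, the measure cannot tell whether the 4 members resemble the pair. The highest single element of these 4 members was one of rs12509305, at 1.43 with minP and 2.02 with SV40.

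The lowest elements differed more between the libraries. With minP the lowest was allele A of rs1795734 (listed at 89933630) in window C and orientation F, at -2.97 ± 0.23, 7.82-fold below the average tag, and with SV40 it stood at -1.49 ± 0.23. It had 8.34 RNA reads against 205 input reads per tag with minP, and 11.5 RNA reads against 54.7 input reads per tag with SV40. Allele G of rs60751124 in window L and orientation RC followed with minP at -2.69 ± 0.23, and its allele A was the last of the 6 lowest at -2.46 ± 0.25. With SV40 these alleles G and A stood at -1.02 ± 0.30 and -1.43 ± 0.23. Next with minP came allele T of rs11097209 in window C and orientation RC at -2.60 ± 0.30, and allele T of rs11097206 in window C and orientation RC at -2.53 ± 0.23. Allele A of rs12645240 in window L and orientation RC was at -2.47 ± 0.28 with minP. These 6 were also at least 2-fold below the average with SV40.

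The lowest with SV40 was allele A of rs34624010 in window C and orientation F, at -1.31 ± 0.45 with minP and -3.05 ± 0.26 with SV40, 8.28-fold below that library's average tag. Its allele G followed at -1.37 ± 0.32 with minP and -2.96 ± 0.28 with SV40. Both had few RNA reads, 2.92 and 2.38 per tag with minP and 2.08 and 1.52 per tag with SV40. At such counts the ratio is bounded by the input depth, since a tag at 0 RNA reads cannot go lower, and 12.3% of the passing tags of the stretch were at 0 RNA reads with minP and 7.65% with SV40. Allele T of rs10516826 in window L and orientation RC was at -1.54 ± 0.23 with minP and -2.95 ± 0.16 with SV40. Allele A of rs12645240 in window R and orientation F was at -2.02 ± 0.32 with minP and -2.86 ± 0.32 with SV40. Allele C of rs17014988 in window C and orientation F was at -1.08 ± 0.36 with minP and -2.81 ± 0.22 with SV40, and allele G of rs11097209 in window L and orientation RC at -1.74 ± 0.26 and -2.66 ± 0.31. These elements were at least 2-fold below the average in both libraries.

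Averaged over its elements, no variant of the stretch was 2-fold above the average tag. Ranked by the mean of both libraries, the highest was rs59188553 (listed at 89927702), 0.73 ± 0.51 with minP and 0.87 ± 0.60 with SV40 (SD over 12 elements). Its elements ran from -0.43 to 1.70 with minP, with 2 of 12 at least 2-fold above and 0 below. After it came rs11097210 with 0.65 ± 0.50 with minP and 0.57 ± 0.83 with SV40, rs1398942 with 0.57 ± 1.45 and 0.58 ± 1.39, rs1921684 with 0.47 ± 1.29 and 0.63 ± 1.64, and rs1708669 with 0.54 ± 0.55 and 0.56 ± 0.66. In rs1398942 and rs1921684 the SD was wider, with high and low elements side by side.

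By the same rank the lowest was rs1795734, -1.22 ± 1.36 with minP and -1.08 ± 0.82 with SV40 over 8 elements. The next were rs11097206 with -0.87 ± 1.20 with minP and -1.16 ± 1.21 with SV40, and rs11097209 with -0.75 ± 1.21 and -1.0 ± 1.01. Low means were also found for rs28379646, -0.73 ± 0.89 with minP and -0.97 ± 1.09 with SV40, and for rs11097207, -0.74 ± 1.39 and -0.78 ± 1.60. These 5 variants had 8 to 10 measured elements with minP, since 2 to 4 of their 12 had too few tags. With minP the F and RC means were -1.72 and 0.29 for rs1795734, 0.63 and -1.37 for rs11097206, and 0.07 and -1.29 for rs11097209. They were -1.34 and -0.33 for rs28379646, and -0.58 and -0.89 for rs11097207. In rs1795734, rs11097206 and rs11097209 the orientation with the higher mean had fewer measured elements, which lowered the mean over elements. In rs28379646 the orientation with the lower mean had fewer. Over all 79 variants the mean ran from -1.22 to 0.73 with minP and from -1.16 to 0.87 with SV40, inside the range over all 606 variants, which was -2.20 to 1.13 with minP and -2.24 to 1.21 with SV40. The SD within a variant was as large as the differences between most variants.

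The second comparison set each element against its reverse complement. Tags of the 2 orientations were compared in a two-sided permutation test per variant, window and allele, with at most 100000 resamples, and a pair was called at a Benjamini-Hochberg adjusted p of 0.05 over the whole table. With minP, 136 of 441 pairs (30.8%) passed, against 28.4% over the whole table. F was higher in 69 of them (15.6%, against 15.1%) and RC in 67 (15.2%, against 13.3%). With SV40, 143 of 435 pairs (32.9%) passed, against 30.5% over the whole table, with F higher in 71 (16.3%, against 16.2%) and RC higher in 72 (16.6%, against 14.3%). Many pairs were thus read differently in the 2 orientations, about as often in the stretch as in the whole table. At a minimum of 50 input reads per tag, 71 of 306 pairs with minP and 72 of 294 with SV40 passed, and with trimmed tags 217 with SV40. The share over the whole table was not counted under these alternatives. Both libraries gave a call with the same sign in 99 of 432 pairs (22.9%), against 21.5% over the whole table. Of these, F was higher in 51 and RC in 48, they came from 53 variants, and 0 pairs were called with opposite signs.

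Most high elements were high in 1 orientation only, in the stretch as in the whole table. With minP, 2 of 441 pairs were at least 2-fold above the average in F and in RC, against 16 of 3384 over the whole table. Another 40 were above in F only and 39 in RC only, against 317 and 295 over the whole table. In 13 pairs F was at least 2-fold above and RC at least 2-fold below, and in 16 pairs it was the other way round, against 110 and 87. With SV40, 2 of 435 pairs were above in both orientations, against 45 of 3347 over the whole table, with 55 in F only and 60 in RC only, against 423 and 379. Low activity in both orientations was found in 8 pairs with minP, against 57 over the whole table, and in 14 with SV40, against 120. Whether any of these shares differs from the table was not tested. The activity of F and RC had a Pearson r of -0.22 over 441 pairs with minP and -0.16 over 435 pairs with SV40. Over the whole table it was -0.12 with minP and -0.04 with SV40. Many of these pairs share a variant or lie close together, so the values are a description.

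The largest orientation difference relative to its error was that of allele C of rs10516826 in window L, whose tags are shown above. Orientation F stood at 3.99 and RC at -2.10 with minP, a difference of 6.09 ± 0.33 (F minus RC, 68.1-fold, 18 and 31 tags, adjusted p = 0.000134, permutation test). With SV40, F stood at 3.69 and RC at -2.30, a difference of 5.99 ± 0.36 (adjusted p = 0.00013, permutation test). Its allele T gave 5.21 ± 0.40 with minP and 6.48 ± 0.62 with SV40. Both alleles, on separate tags, thus gave the same direction, and neither orientation overlapped the other within 3 standard errors.

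Allele C of rs1921684 (listed at 89922143) in window C was the reverse, with F at -1.22 and RC at 2.19 with minP, a difference of -3.42 ± 0.25. With SV40, F was at -1.10 and RC at 2.82, a difference of -3.92 ± 0.28. The same direction was seen for its allele T in window C, with F at -1.09 and RC at 2.14 with minP. In window R of rs1921684 the F elements were at -0.92 and -1.0 and the RC elements at 1.31 and 1.84 with minP. In window L the order was not kept, with F at 0.26 and 1.18 and RC at 0.64 and 0.31.

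Allele C of rs9992522 (listed at 89944272) in window L had F at -2.23 and RC at 1.91 with minP, a difference of -4.14 ± 0.36, and -4.01 ± 0.35 with SV40. Windows C and R of rs9992522 were near the average in both orientations, between -0.77 and 0.19 with minP. Allele T of rs9996559 in window L had F at 3.14 and RC at -1.34 with minP, a difference of 4.48 ± 0.34, and 4.42 ± 0.40 with SV40. All of the 5 pairs named here had the smallest adjusted p that the permutation test gave, 0.000134 with minP and 0.00013 with SV40, for a smallest unadjusted p of 1e-05. Both directions of orientation difference were thus present in the stretch, in several cases in 1 window of a variant and not in its other windows.

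Activity was much alike between the alleles of a construct and less alike between the windows of a variant. The 2 alleles of a construct, which differ at the variant but have separate tags, had a Pearson r of 0.85 over 457 constructs with minP and 0.85 over 450 with SV40. Over the whole table it was 0.81 and 0.83. By contrast, windows L and C of the same variant, orientation and allele had an r of 0.28 with minP and 0.18 with SV40, windows C and R 0.21 and 0.14, and windows L and R 0.14 and 0.15. Of 60 constructs with an allele at least 2-fold above the average with minP, 22 had both alleles above, against 170 of 469 over the whole table. Of 89 with an allele 2-fold below, 55 had both below, against 370 of 678. With SV40, both alleles were above in 36 of 82 such constructs, against 266 of 618 over the whole table, and both below in 58 of 104, against 453 of 825. In 0 constructs of the stretch was 1 allele above and the other below, in either library, against 3 with minP and 5 with SV40 over the whole table.

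No orientation of a variant had all of its measured elements at least 2-fold above the average, and 2 of 158 had all of them at least 2-fold below with minP, and 2 of 158 with SV40. The whole table was not counted in this way, so these counts have no background share. The windows had like overall levels. The median activity was 0.14 in window L, 0.09 in window C and 0.11 in window R with minP, and 0.10, 0.02 and 0.11 with SV40. Orientation F had a median of 0.15 and RC of 0.10 with minP, and 0.13 and 0.07 with SV40. High elements were nearly even between the orientations, with 42 in F and 41 in RC with minP, and 57 in F and 62 in RC with SV40.

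Closely spaced variants gave a further look at nearby sequence. The variants rs11097207 and rs12645240 are listed 1 base apart, at 89912705 and 89912706, and over 4 constructs measured in both their activities differed by a median of 0.17 with minP and 0.44 with SV40. The variant rs11097206 lies 60 bases from rs11097207, and over 3 constructs of the same window their activities differed by a median of 2.18 with minP and 2.09 with SV40. Over the 12 pairs under 100 bases apart, constructs of the same window and orientation had a Pearson r of 0.30 with minP and 0.37 with SV40 (67 construct pairs, shared library).

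For pairs 60 to 149 bases apart, different windows were also compared. In the stretch, 10 such pairs gave an r of 0.39 with minP and 0.38 with SV40 between window R of the variant at the lower position and window L of the variant at the higher position (18 construct pairs). Window L of the lower against window R of the higher gave -0.19 and -0.12 (17 construct pairs). Window L of both variants gave 0.50 with minP and 0.44 with SV40 over 18 construct pairs in the stretch. Over the 73 such pairs of the whole table the R with L value was 0.51 with minP and 0.49 with SV40, over 139 construct pairs, and the L with R value was 0.09 and 0.08. The larger set thus had its highest value for R with L, while in the stretch L with L was higher.

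A cluster of 3 variants, rs1795739, rs1398942 and rs1795738, is listed at 89930313, 89930392 and 89930434, 79 and 42 bases apart. The strong F activity of rs1398942 in window L, 3.39 and 2.76 with minP, was accompanied by 0.93 and 2.0 in window L of rs1795739 (alleles G and A) and by -0.29 and 0.39 in window L of rs1795738 (alleles T and C). Window R of rs1795739 in orientation F, with alleles G and A, was at 0.65 and 1.49 with minP, while its window C was at -1.66 and -1.53. Within these few bases the same orientation thus held elements both well above and well below the average.

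The third comparison asked whether the 2 alleles of a construct differed. Since no reference allele was named in the table, each difference was taken as the allele later in the alphabet minus the earlier one, over mean tag ratios. It was tested by a two-sided permutation test over tags with the same adjustment over the whole table. With minP, 4 of 457 constructs (0.875%) passed, against 1.47% over the whole table, and with SV40 3 of 450 (0.667%) passed, against 1.02%. At an unadjusted p under 0.05, 37 constructs (8.10%) passed with minP, against 7.84% over the whole table, and 38 (8.44%) with SV40, against 7.39%. In both libraries with the same sign, 2 of 450 constructs (0.444%) passed, against 0.878% over the whole table. In the main setting the stretch was thus no richer in allelic calls than the table. With tags trimmed by 10% at each end, which narrows the spread the test sees, 14 passed with minP, 18 with SV40 and 6 in both. The whole table was not counted under trimming, so these calls have no background share.

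The precision limits these counts. In size, the median allelic difference came to 0.34 with minP and 0.38 with SV40, while their median standard errors were 0.46 and 0.52. The smallest difference called in the stretch was 1.19 in size with minP and 0.94 with SV40. Smaller allelic differences were not detectable at this depth in most constructs, and some larger ones named below missed the threshold too. In data simulated from the tags of the whole table, a planted log2 difference of 1 was recovered in 9 of 94 constructs with minP and 4 of 94 with SV40. A planted log2 difference of 2 was recovered in 69 of 99 with minP and 49 of 95 with SV40. The simulation drew the spread of tags from all elements pooled and added counting noise to it. It did not keep the spread of each construct, so these rates need not hold for a construct with a narrow or a wide spread. A further 17 constructs with minP and 24 with SV40 had too few tags in an allele to be tested. The sign was shared by both libraries in 344 of 450 constructs, which carry the same tags in both. This sign count was not made over the whole table, so it has no background share.

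The construct rs2869972 in window C and orientation F had the smallest adjusted p in the stretch in both libraries. Its allele G stood at 0.06 and its allele A at -1.82 with minP, a difference of 1.88 ± 0.33 (3.68-fold, 30 tags each, adjusted p = 0.0013, permutation test). Allele G had 3140 RNA reads against 11236 input reads with minP, and allele A had 994 RNA reads against 11618 input reads. With SV40, allele G stood at 0.53 and allele A at -0.99, a difference of 1.51 ± 0.29 (2.86-fold, adjusted p = 0.0020, permutation test), with 7015 RNA reads against 8254 input reads for allele G and 1923 RNA reads against 6720 input reads for allele A. The alleles had like input, and the difference was as large in RNA reads alone, 1.80 with minP (adjusted p = 0.0039, permutation test) and 1.81 with SV40 (adjusted p = 0.0028, permutation test).

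The other windows of rs2869972 in orientation F had the same sign. In window R allele G stood at -0.13 and allele A at -0.87 with minP, a difference of 0.74 ± 0.23 (33 and 31 tags, adjusted p = 0.0589, permutation test). With SV40 the window R difference of rs2869972 was 0.75 ± 0.22 (adjusted p = 0.0880, permutation test), so it missed the threshold in both libraries. In window L, allele G stood at -0.30 and allele A at -0.91 with minP. In orientation RC of rs2869972 the order was reversed in windows L and R. Alleles G and A stood at 1.90 and 2.88 in window L and at -0.47 and 0.09 in window R with minP. With SV40 they stood at 2.90 and 3.21 in window L and at -0.35 and 0.79 in window R. Window C kept the order of orientation F with minP, with allele G at 1.89 and allele A at 0.73 (10 tags). Its allele A had too few tags to be measured with SV40. None of these RC differences passed the threshold. The oligonucleotides of window R of rs2869972 had an unexplained mark in their names.

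The construct rs2178586 (listed at 89925320) in window L and orientation F was the other one called in both libraries, and its calls were lost under 3 of the alternatives. Its allele T stood at 0.74 and its allele C at 2.27 with minP, a difference of -1.53 ± 0.41 (32 and 27 tags, adjusted p = 0.0476, permutation test). With SV40, allele T stood at 0.68 and allele C at 2.45, a difference of -1.77 ± 0.45 (adjusted p = 0.0202, permutation test). Allele T had 1380 RNA reads against 2124 input reads with minP, and allele C had 1788 RNA reads against 1496 input reads. At a minimum of 50 input reads the difference of rs2178586 was -1.28 with minP (adjusted p = 0.25, permutation test) and -1.58 with SV40 (adjusted p = 0.56, permutation test). Without tags at 0 RNA reads it was -1.17 with minP (adjusted p = 0.164, permutation test) and -1.42 with SV40 (adjusted p = 0.059, permutation test). In RNA reads alone the alleles were -1.31 apart with minP and -1.34 apart with SV40, which was not called (adjusted p = 0.208 and 0.313, permutation test). In the other windows and in orientation RC of rs2178586, allele T was above allele C with minP, as in window R and orientation F with 0.24 for T and -0.25 for C. The lower activity of allele T was thus seen in 1 construct of the variant and not in the other 5.

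The remaining calls were made in 1 library each. In rs10516826, window R and orientation RC, allele T stood at -1.05 and allele C at 0.39 with minP, a difference of -1.44 ± 0.32 (adjusted p = 0.0033, permutation test). With SV40 it was -1.17 ± 0.46 (adjusted p = 0.468, permutation test). In minP input reads alone the alleles of this construct differed by 0.62 (adjusted p = 0.0333, permutation test), with 9020 reads for allele T and 5425 for allele C, and by 0.04 in SV40 input reads. The construct rs1795738 in window C and orientation F gave -1.19 ± 0.31 with minP (T minus C, adjusted p = 0.0239, permutation test) and -0.47 ± 0.41 with SV40 (adjusted p = 0.843, permutation test). Its RNA reads alone differed by -0.22 with minP, while its minP input reads differed by 0.97 (adjusted p = 0.0017, permutation test). In both of these constructs the call in minP went with more input reads of the allele with lower activity.

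In rs59188553, window R and orientation RC, allele T stood at 1.70 and allele C at 0.98 with minP, a difference of 0.71 ± 0.21 that missed the threshold (adjusted p = 0.0647, permutation test). With SV40 allele T stood at 2.08 and allele C at 1.13, a difference of 0.94 ± 0.26 that passed (adjusted p = 0.0383, permutation test). The RNA reads alone differed by 0.24 with minP and 0.37 with SV40 and were not called (adjusted p = 0.864 and 0.731, permutation test). Whether any allelic difference differs between the promoters was not tested.

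Of the 8 constructs with the largest allelic difference relative to its error in both libraries, 3 more missed the threshold in both. They were rs1708668 in window L and orientation RC (G minus A, 1.22 ± 0.47 with minP and 1.49 ± 0.49 with SV40), rs13140085 in window R and orientation RC (T minus C, 1.17 ± 0.47 and 1.20 ± 0.40), and rs7656238 in window R and orientation F (T minus C, 1.30 ± 0.51 and 1.43 ± 0.58). Their adjusted p lay between 0.244 and 0.456 (permutation test). For rs13140085, the RNA reads alone differed by 1.67 with minP, which did not pass (adjusted p = 0.0821, permutation test), and by 1.65 with SV40, which did (adjusted p = 0.0413, permutation test). For rs7656238, the RNA reads alone differed by 0.04 with minP and the input reads alone by -1.26 (adjusted p = 0.0022, permutation test).

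The sign of the allelic difference was alike in F and RC of the same window in 106 of 220 windows with minP and in 103 of 213 with SV40, against 799 of 1661 and 784 of 1633 over the whole table. A sign alike in at least 5 of 6 constructs in both libraries was found for 7 of the 79 variants (8.86%), against 44 of 606 (7.26%) over the whole table. The 5 of them with the largest mean difference were rs12508371, rs7680864, rs9996559, rs60213126 and rs13146548. The mean difference of rs12508371 over 6 constructs was -0.35 ± 0.41 with minP and -0.45 ± 0.54 with SV40 (SD). That of rs7680864 was -0.34 ± 0.22 with minP, with 6 of 6 constructs of 1 sign, and -0.43 ± 0.48 with SV40. For rs9996559 it was -0.28 ± 0.63 and -0.33 ± 0.49, for rs60213126 -0.25 ± 0.36 and -0.33 ± 0.33, and for rs13146548 0.40 ± 0.41 and 0.14 ± 0.47. For most of these variants the mean was no larger than the SD over the constructs, and none of their constructs passed the test.

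The last comparison set the promoters side by side, each element's activity being centred on its own library. Over 906 elements the activity with minP and with SV40 had a Pearson r of 0.91 (shared tags), and the difference, minP minus SV40, had an SD of 0.45. It was at least 1 on the log2 scale in 25 elements (2.76%), against 3.05% over the whole table, and at most -1 in 11 (1.21%), against 1.16%. With 1 library per promoter, the difference compares 2 libraries and has no test.

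The highest differences were those of allele A of rs1708668 in window C and orientation RC, 1.83, allele T of rs6852373 in window R and orientation F, 1.76, allele A of rs34624010 in window C and orientation F, 1.74, and allele C of rs17014988 in window C and orientation F, 1.73. All 4 were below the average in both libraries, between -1.31 and -0.74 with minP and between -3.05 and -2.49 with SV40. They had 22.7 to 27.5 input reads per tag with minP, near the minimum of 10. At equal input a tag at 0 RNA reads stands lower with SV40 than with minP, since SV40 had more RNA reads, 24504694 against 11086933. The part that this floor takes in the differences was not tested. The lowest differences were those of allele G of rs60751124 in window L and orientation RC, -1.67, allele A of rs1795734 in window C and orientation F, -1.48, allele T of rs11097209 in window C and orientation RC, -1.34, and allele G of rs2904261 in window L and orientation F, -1.21.

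The last 4 were also below the average in both libraries, and they had more input reads per tag in the minP pool than in the SV40 pool. Allele G of rs60751124 had 9.39 RNA reads against 185 input reads per tag with minP, and 19.5 RNA reads against 56.4 input reads per tag with SV40. Allele A of rs1795734 had 205 and 54.7 input reads per tag, and allele T of rs11097209 had 105 and 28.6. Allele G of rs2904261 had 311 input reads per tag with minP and 91.8 with SV40. In all 8 named elements the difference was one of how far below the average they stood, and the part that pool composition takes in it was not tested.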

How the data were processed

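Counts per tag were used as deposited, whole-number reads of 4 libraries that the authors sequenced with single reads of 36 nt per the labels. The labels and the table did not state the matching, filtering or deduplication of reads, or a genome build. The table held 11086933 RNA and 29398765 input reads with minP and 24504694 RNA and 26557676 input reads with SV40. Tag ratios were log2((RNA + 1)/RNA total) minus log2((input + 1)/input total), for tags with at least 10 input reads, which were 25919 tags of the stretch with minP and 25615 with SV40. Groups were taken from the sample titles. With 1 library per group, no count model was fitted; permutation tests ran over the tags of a construct, stopped at 100 hits or 100000 resamples, and were adjusted over the whole table. Their p-values measure the spread between tags within 1 transfection, not between transfections.

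Named constructs followed a rule: all allelic calls, the 6 highest and 6 lowest elements per library, the 5 highest and 5 lowest variant means, variants within 2000 bases of the 2 left out, the 8 allelic and 5 orientation differences largest relative to their errors, the 5 variants alike in sign, and the 4 largest promoter differences each way. Other elements of these variants, and the cluster of 3 variants, were chosen after their values were seen. Members and lists were chosen with earlier results of these data known. The 88 oligonucleotides of 13 variants with a mark of unknown meaning in their names were kept.

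The permutation test was tested on simulated data made from these tags. Tags that begin with TC were 0.315% of the passing tags with minP, with a mean log2 ratio of -2.16 against -0.77 for other tags, and 0.261% with SV40, with -3.42 against -1.01. Python 3.11.15, numpy 2.4.6, pandas 2.3.3 and numba 0.67.0 were used. In all, 12 alternatives were tried, and the one without TC tags was chosen after seeing the data.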

Additional observations from a re-analysis of the deposited data

How the results depend on the processing

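No paired analysis was possible because each group has 1 library. The 10 values of the 5 orientation pairs named in the text kept their sign and their call under every alternative that could be computed for them. Elements at least 2-fold above with minP, 83, were 55 without tags at 0 RNA reads and 49 with the median tag as the reference. Those with SV40, 119, were 78 with at least 50 input reads per tag, 59 from summed counts and 63 with the median tag. Elements at least 2-fold higher with minP than with SV40, 25, were 10 with at least 20 tags, 12 from summed counts and 39 with the median tag, and those at least 2-fold lower, 11, were 7 without tags at 0 RNA reads and 4 with the median tag. Allelic calls with minP, 4, were 14 with tags trimmed by 10% at each end, 2 from the RNA counts without input and 17 from the input counts by themselves. With SV40, 3 calls became 18 with trimming and 11 in input counts alone. Calls in both libraries, 2, were 6 with trimming, 8 from input counts, and 1 with at least 50 input reads, without tags at 0 RNA reads or in RNA counts alone. Trimming within each allele narrows the spread the test sees, so its p-values are too small. Orientation calls with minP, 136, were 71 with at least 50 input reads, and with SV40, 143, they were 72 with at least 50 input reads and 217 with trimming. Fewer elements are tested at 50 input reads. All these counts under the alternatives cover the stretch only, with no whole-table share beside them. The sign of the allelic difference turned in input counts alone, which carry no RNA, to 0.62 with minP and 0.045 with SV40 for rs10516826 (window R, RC), -0.080 with minP for rs2869972 (window C, F), 0.22 and 0.42 for rs2178586, 0.97 and 0.083 for rs1795738, -0.47 and -0.57 for rs59188553, -0.62 and -0.68 for rs1708668, and -1.26 and -1.04 for rs7656238. The call of rs2178586 was lost with at least 50 input reads and without tags at 0 RNA reads; the cause was not tested. Of 324 values of single elements under the alternatives, 33 moved outside the interval of their error over tags, 19 of them from summed counts. Depth limits elements near 10 input reads per tag and tags at 0 RNA reads most.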
